A study of Mus musculus with 8 samples.

Results

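Tmem119 and Selplg are neighbouring genes on mouse chromosome 5, both read from the minus strand, and their start sites lie 30.1 kb apart. Tmem119 encodes a single-pass membrane protein that marks microglia among the cells of the brain, and Selplg encodes PSGL-1 (CD162), the mucin-like glycoprotein that binds P-selectin. Both belong to the genes that microglia, the resident macrophages of the brain, express in the unperturbed (homeostatic) state. H3K27ac, the acetylation of histone H3 at lysine 27, marks active promoters and enhancers, so its level over accessible regions reports on the regulatory activity of a locus rather than on its RNA. All regions that the deposited table assigns to either gene as the gene with the nearest promoter were taken, which gave 41 of 129304 regions of 800 bp: 22 for Selplg and 19 for Tmem119. The genes themselves were chosen by their H3K27ac in GrnKO against WT in these libraries. The assignment rests on distance alone, and some regions assigned to Selplg lie inside the next gene, Coro1c.

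H3K27ac was measured by chromatin immunoprecipitation and sequencing in sorted brain nuclei of C57BL/6 mice aged 2 years that were wild type (WT) or labelled GrnKO, a knockout of Grn, the gene of the lysosomal protein progranulin. Nuclei were sorted on PU.1, a transcription factor of myeloid cells, without OLIG2 and NEUN, which mark oligodendroglial and neuronal nuclei. Each genotype had 2 H3K27ac libraries and 2 input libraries, every library from nuclei pooled from 2 mice, so that p-values measure the spread between pools. The labels name the genotypes only as WT and GrnKO, with no allele and no sex of the mice.

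The H3K27ac libraries held 15491642.5 and 18433104 tags in WT and 16348961.5 and 20030832 in GrnKO. WT replicate 1 stood apart, with 49.4% of its tags in the listed regions against 63.3% to 65.7% in the other 3, and scaling by TMM (trimmed mean of M-values) was applied on top of the authors' scaling to 10000000 tags. Values below are scaled tags after TMM unless stated. Of the 2 regions at the Grn promoter on chromosome 11, one held 294 and 311 in WT and 0 in both GrnKO libraries, and the other 585 and 573 against 7.34 and 6.49 (authors' scaling). In the same scaling, markers of microglia summed to 40112 to 53275 in WT and 43585 to 43786 in GrnKO over 8 of 8 genes, and their promoter regions held 362 to 497 per region in WT and 395 to 404 in GrnKO. After TMM these sums were 48602 to 51439 in WT and 40309.8 to 40468 in GrnKO, without overlap, and 5 of the 8 genes were called lower in GrnKO and 0 higher, where 5.88% of all tested genes were called lower and 8.60% higher. Promoter regions of neuronal markers held at most 2.00 per region in any library, and those of oligodendrocyte markers at most 11.4.

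H3K27ac over Selplg was lower in GrnKO, and over Tmem119 less so. Summed over its 22 regions, Selplg held 5758 and 6595 in WT against 3864 and 4477 in GrnKO, a change of the mean from 6177 ± 592 to 4170.4 ± 433 (SD, n = 2), which is 67.5% of WT (log2 change -0.57 with SE 0.09). Over its 19 regions Tmem119 held 3333 and 3479 in WT against 2427 and 2878 in GrnKO, or 77.9% of WT (log2 change -0.37 with SE 0.09). For both genes each GrnKO library lay below each WT library. The genes were chosen with this comparison known, so their changes are given as a description and no test is read from them. As deposited, without TMM, the sums were 4753 and 6831 in WT against 4178 and 4844 in GrnKO for Selplg and 2750.5 and 3603 in WT against 2624 and 3114 in GrnKO for Tmem119. The log2 changes were then -0.34 and -0.14, and the genotypes overlapped for both genes. This scaling also raised the median change of all 15380 tested genes from -0.05 to 0.18. Relative to the median of each scaling, the changes were -0.52 after TMM and -0.52 as deposited for Selplg, and -0.32 and -0.32 for Tmem119. TMM divides all values of a library by the same factor, so these pairs agree by construction and are no check on the scaling. Without GrnKO replicate 1 the log2 change of Tmem119 was -0.24, against -0.49 without GrnKO replicate 2.

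**Figure D1:**
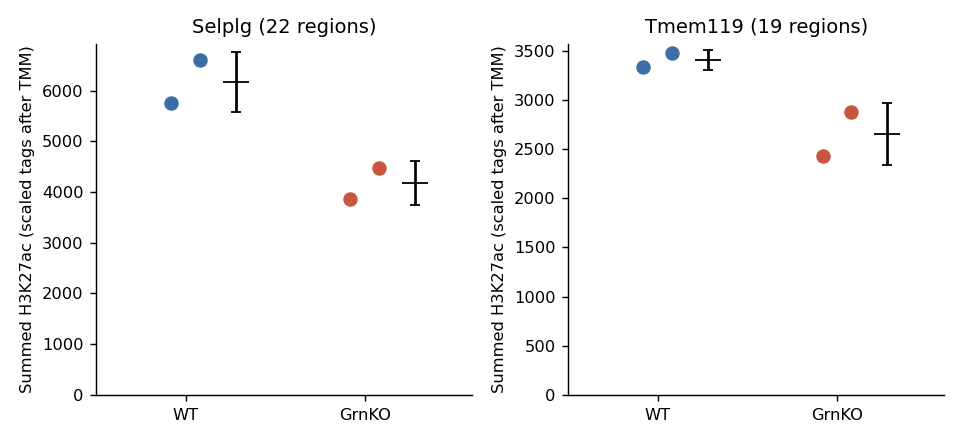
Summed H3K27ac over the regions of Selplg (left) and Tmem119 (right), in scaled tags after TMM, for each library (points) with the mean ± SD of the 2 libraries of a genotype (bars). The GrnKO libraries sit between 3864 and 4477 for Selplg and between 2427 and 2878 for Tmem119, below the WT libraries in both panels.

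Region by region, 40 of the 41 passed the filter on low values, and 37 of these had a negative log2 change after TMM (30 as deposited). In 31 of them both GrnKO libraries lay below both WT libraries (17 as deposited), against 25.6% of all tested regions after TMM, and in 3 both lay above, as in 21808 of the 80728 tested. The fit across all regions (limma, Benjamini-Hochberg adjusted p under 0.05) called 15 of the 40 lower, 12 of Selplg and 3 of Tmem119, and 0 higher, where 2.92% of all tested regions were called lower and 6.80% higher. Because these regions were picked with this contrast in view, nothing is read from that count. It was 3 as deposited, 3 without GrnKO replicate 1 and 4 without GrnKO replicate 2. Neighbouring regions share tags where they overlap, and a set of 27 regions without overlap held 12 of those called. The region that did not pass the filter, 9.945 kb upstream of Tmem119 in an LTR element, held 6.25 and 3.41 in WT against 9.90 and 1.16 in GrnKO.

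At the Selplg promoter, chr5:113830063-113830863 (mm10, as are all coordinates here), the 4 libraries held 530.3 and 583 in WT against 335 and 426 in GrnKO, a change from 557 ± 37.1 to 380.4 ± 64.7 (SD, n = 2; log2 change -0.56 with SE 0.14). The 2 genotypes did not overlap after TMM. As deposited the values were 438 and 604 in WT against 362 and 461 in GrnKO, which overlap, with a log2 change of -0.33. This was the only Selplg region at the start site, and its signal ranked 509 of 129304 regions in WT.

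The 2 most negative changes among the Selplg regions were in its single intron. The region 2.16 kb from the start, chr5:113827938-113828738, held 287 and 315 in WT against 128 and 144 in GrnKO (log2 change -1.14 with SE 0.17). The one overlapping it at 2.43 kb held 240.1 and 265 in WT against 101 and 125 in GrnKO (log2 change -1.16 with SE 0.18). The WT means were 2.21 and 2.23 times those of GrnKO, and the genotypes did not overlap in either region. At 3.67 kb, chr5:113826433-113827233, the values were 159 and 145 in WT against 76.7 and 73.4 in GrnKO (log2 change -1.01 with SE 0.21). These 3 were among the 12 Selplg regions called lower, calls from which nothing is read because the genes were chosen by this contrast. Farther into the intron, the region at 5.05 kb held 102 and 133 in WT against 76.9 and 74.5 in GrnKO (log2 change -0.62 with SE 0.23). The one at 6.02 kb held 89.9 and 81.5 in WT against 43.8 and 43.8 in GrnKO (log2 change -0.95 with SE 0.26). The weakest, at 8.96 kb, held 25.4 and 19.9 in WT against 12.7 and 18.2 in GrnKO (log2 change -0.53 with SE 0.46). GrnKO libraries lay below WT libraries in each of these 3. Summed over the 6 intronic regions, H3K27ac was 903 and 959 in WT against 439 and 479 in GrnKO, which is 49.3% of WT. Within each library, which removes any scaling, the intron held 1.70 and 1.65 times the promoter's tags in WT and 1.31 and 1.12 times in GrnKO. The genotypes did not overlap in this ratio, which is given as a description.

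Most of the acetylation assigned to Selplg lay upstream of it, in 9 regions between 3.29 and 12.7 kb from its start that run up to the 3′ end of Coro1c. Their sum was 4029.6 and 4734 in WT against 2855 and 3298 in GrnKO, or 70.2% of WT, and after TMM the 2 genotypes did not overlap in any of the 9. As deposited they overlapped in 6 of the 9, and the log2 change of the sum was -0.28 against -0.51 after TMM. The strongest, chr5:113842125-113842925, overlaps the transcription termination site of Coro1c and ranked 17 of 129304 regions in WT. It held 836 and 1032 in WT against 646 and 672 in GrnKO, a change from 934 ± 139 to 659 ± 18.2 (SD, n = 2; log2 change -0.49 with SE 0.11). The next in strength were chr5:113840707-113841507, between Selplg and Coro1c, with 683 and 799.8 in WT against 481 and 654 in GrnKO (log2 change -0.40 with SE 0.14), and chr5:113842793-113843593, in the 3′ untranslated part of exon 11 of 11 of Coro1c, with 641 and 819.8 in WT against 489 and 542 in GrnKO (log2 change -0.49 with SE 0.13). The 6 others lay along the interval from the end of Coro1c toward the Selplg start. Overlapping the strongest region, the one at 11.6 kb held 533 and 564 in WT against 398 and 451 in GrnKO (log2 change -0.37 with SE 0.12). At 10.1 kb the values were 414 and 428 in WT against 272 and 305 in GrnKO (log2 change -0.54 with SE 0.14). At 9.56 kb they were 314 and 282 in WT against 173 and 197 in GrnKO (log2 change -0.69 with SE 0.16). The last 2 overlap each other, and the remaining 3 are intergenic too. The region at 6.63 kb held 314 and 365 in WT against 195 and 224 in GrnKO (log2 change -0.70 with SE 0.15). The one at 4.70 kb held 218 and 332 in WT against 163 and 193 in GrnKO (log2 change -0.60 with SE 0.19). The nearest, at 3.29 kb, held 77.4 and 112 in WT against 39.0 and 60.4 in GrnKO (log2 change -0.93 with SE 0.29). Over all 40 tested regions, level and change had a Spearman's rho of 0.0854 (a description, across regions that share libraries and tags). The upstream block held 7.60 and 8.12 times the promoter's tags in WT and 8.53 and 7.74 times in GrnKO, and the genotypes overlapped.

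The 4 regions assigned to Selplg inside the introns of Coro1c, an actin-binding coronin, were mixed in direction. The region in intron 10 of 10, 14.4 kb upstream of Selplg, held 67.7 and 88.0 in WT against 47.0 and 69.2 in GrnKO, with overlap between the genotypes. In intron 3 of 10, at 28.6 and 29.0 kb, 2 overlapping regions held 39.1 and 37.7 in WT against 57.7 and 63.0 in GrnKO and 52.4 and 41.6 in WT against 60.8 and 56.5 in GrnKO (log2 change 0.64, SE 0.29, and 0.32, SE 0.29). Another, weaker region at 24.2 kb held 7.83 and 7.34 in WT against 9.05 and 11.996 in GrnKO. Both GrnKO libraries lay above both WT libraries in these 3, the only regions of either gene where they did, under TMM and as deposited. At 28.6 kb the input libraries held 0 and 3.21 in WT against 3.12 and 44.9 in GrnKO (authors' scaling). At 29.0 kb they held 0 and 17.1 in WT against 3.82 and 44.9 in GrnKO. The part of input in these gains was not tested. Among the regions assigned to Selplg, the sign of the change switched between chr5:113844524-113845324 and chr5:113854328-113855128, though 0 of these 4 regions were called in either direction. Farther along Coro1c the sign was not uniform. Changes were negative at chr5:113870667-113871467 and chr5:113905097-113905897 (log2 change -0.15, SE 0.61, and -0.24, SE 0.67), while 10 of 22 tested regions assigned to Coro1c were called higher.

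**Figure D2:**
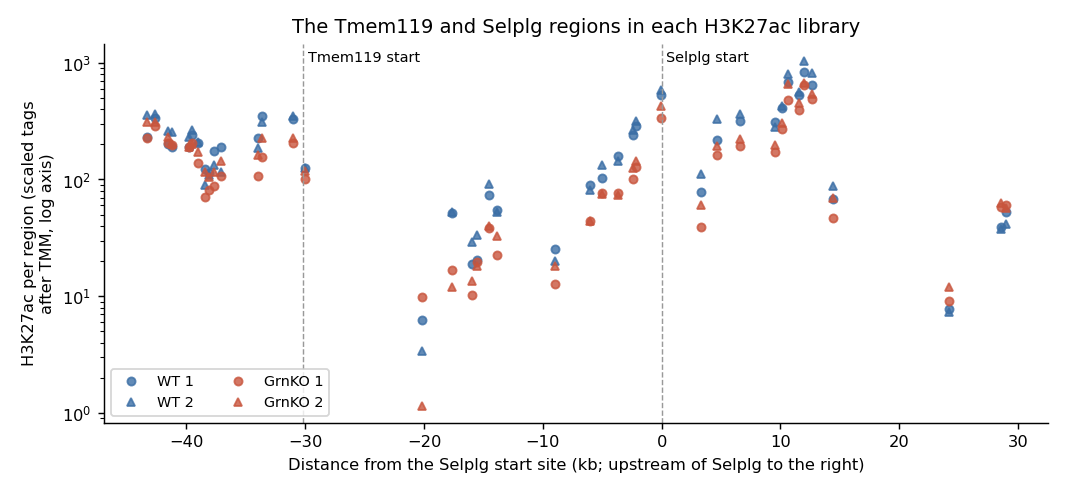
H3K27ac in each of the 41 regions (scaled tags after TMM, log axis) against distance from the Selplg start site in kb, with WT libraries in blue, GrnKO libraries in red, replicate 1 as circles and replicate 2 as triangles. Signal is highest upstream of Selplg, where the strongest region reaches 1032, and in the 6 regions of the Selplg intron all red points lie under the blue ones.

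Tmem119 was arranged differently. Its promoter region, chr5:113800085-113800885, was weakly acetylated for the locus, with 126 and 126 in WT against 101 and 118 in GrnKO (log2 change -0.20 with SE 0.20), and the difference between the genotype means was smaller than the gap between the GrnKO libraries. As deposited its change was 0.02. The single intron of Tmem119 carried the most negative changes within the gene body: chr5:113796462-113797262, 3.49 kb from the start, held 348 and 313 in WT against 156 and 229 in GrnKO, a change from 331 ± 24.7 to 192 ± 51.5 (SD, n = 2; log2 change -0.80 with SE 0.18). At 0.872 kb, chr5:113799080-113799880, the values were 331 and 348 in WT against 207 and 227 in GrnKO (log2 change -0.65 with SE 0.15). A region overlapping the first held 228 and 185 in WT against 106 and 162 in GrnKO (log2 change -0.64 with SE 0.21). GrnKO libraries lay below WT libraries in all 3, whose sum was 61.9% of WT.

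Most Tmem119 signal lay past the end of the gene, in 11 regions between 6.98 and 13.2 kb downstream of its start, which had small differences. Their sum was 2201 and 2387 in WT against 1799.8 and 2098 in GrnKO, or 84.9% of WT (log2 change of the sum -0.24, and -0.01 as deposited). Single regions had log2 changes from -0.58 to -0.08 after TMM, 0 of the 11 were called, and the genotypes overlapped in 5 of them (10 as deposited). The strongest, chr5:113787485-113788285, held 338 and 364 in WT against 289.9 and 311 in GrnKO. The farthest, chr5:113786752-113787552, held 232 and 355 in WT against 226 and 311 in GrnKO. In this last region the replicates of each genotype differed more than the genotypes did. Overlap between the genotypes was also seen at 11.4 kb, with 203 and 259 in WT against 205 and 230.2 in GrnKO (log2 change -0.08 with SE 0.17), at 11.1 kb, with 190.4 and 254 in WT against 197 and 203 in GrnKO (log2 change -0.14 with SE 0.17), and in 2 regions nearer the gene. Of these, the one at 8.31 kb held 122 and 89.8 in WT against 71.3 and 117 in GrnKO (log2 change -0.20 with SE 0.26). The one at 6.98 kb, at the termination site of Tmem119, held 190.4 and 116 in WT against 107 and 144 in GrnKO (log2 change -0.26 with SE 0.23). In the 5 regions that remain, GrnKO libraries lay below WT libraries. The region at 9.65 kb held 192 and 232 in WT against 190.4 and 189 in GrnKO (log2 change -0.15 with SE 0.17). The region at 9.35 kb held 239 and 267 in WT against 204 and 202 in GrnKO (log2 change -0.31 with SE 0.16). At 8.92 kb the values were 206 and 208 in WT against 138 and 171 in GrnKO (log2 change -0.43 with SE 0.18). At 7.98 kb they were 114 and 109.7 in WT against 81.5 and 104 in GrnKO (log2 change -0.28 with SE 0.22). The other region at the termination site, 7.53 kb from the start, had the most negative change of the 11, with 175 and 133 in WT against 88.8 and 117 in GrnKO (log2 change -0.58 with SE 0.22). Within a library the intron held 0.412 and 0.355 times the tags of the downstream regions in WT and 0.261 and 0.294 times in GrnKO, without overlap.

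Between the 2 genes lay 6 weak intergenic regions, 4 assigned to Tmem119 and 2 to Selplg. Their sum was 226 and 263 in WT against 117 and 118 in GrnKO, or 48.1% of WT. The largest single change of either gene was here, at chr5:113812467-113813267 in an LTR element, 12.5 kb upstream of Tmem119, with 52.0 and 52.6 in WT against 16.7 and 11.996 in GrnKO (log2 change -1.81 with SE 0.38). At chr5:113815548-113816348, downstream of Selplg, the values were 73.5 and 91.7 in WT against 38.2 and 40.1 in GrnKO (log2 change -1.05 with SE 0.28). Its neighbour at 13.9 kb from the Selplg start held 54.8 and 52.6 in WT against 22.6 and 32.5 in GrnKO (log2 change -0.96 with SE 0.33). Of the Tmem119 regions, the one 14.2 kb upstream held 18.8 and 29.3 in WT against 10.2 and 13.6 in GrnKO (log2 change -0.94 with SE 0.49). The one overlapping it at 14.6 kb held 20.3 and 33.5 in WT against 19.8 and 18.2 in GrnKO (log2 change -0.44 with SE 0.43). Genotypes did not overlap in any of these 5 after TMM, nor in 4 of them as deposited, and all were weaker than the promoter of Selplg in every library.

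**Figure D3:**
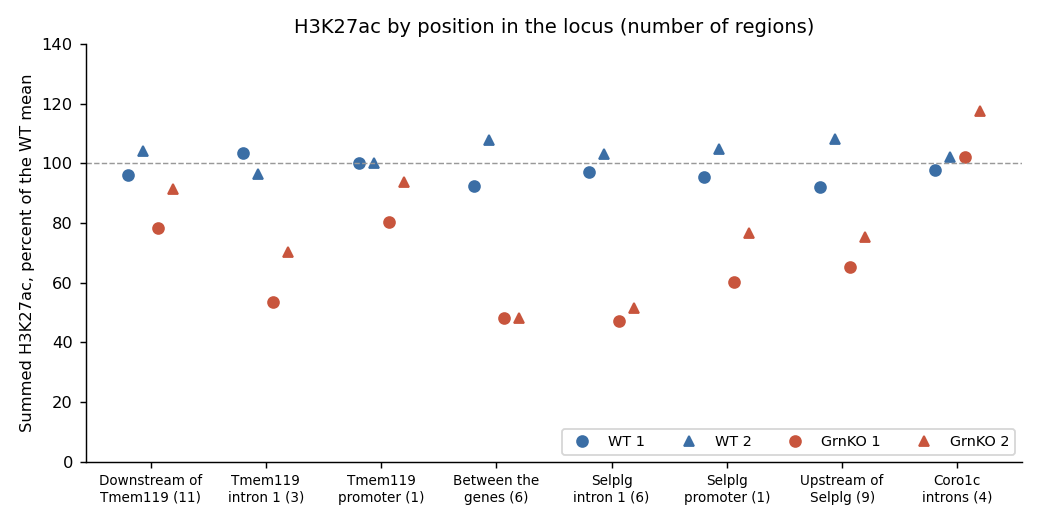
Summed H3K27ac in each library as a percent of the WT mean, for 8 groups of regions in order along the locus, with the number of regions in brackets (circles, replicate 1; triangles, replicate 2; dashed line, WT mean). GrnKO means are 49.3% in the Selplg intron and 48.1% between the genes, against 84.9% downstream of Tmem119 and 109.8% in the Coro1c introns.

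Both genes held far more H3K27ac than input. The input libraries held 13.5 and 61.0 scaled tags over Tmem119 in WT and 40.6 and 34.7 in GrnKO, and 9.81 and 144 over Selplg in WT and 81.9 and 122 in GrnKO (authors' scaling). In WT, H3K27ac exceeded input by 6.72 on the log2 scale for Tmem119 (SE 0.90) and by 7.17 for Selplg (SE 1.45). The WT H3K27ac values took part in the choice of the genes, so this is a description, and nothing is read from the count of 33 of 40 regions called higher than input, where 68.0% of all tested regions were. The WT inputs were uneven, since replicate 1 rests on 5.50 and 4.00 tags for the 2 genes. Without the pool of WT replicate 1 the difference was 5.86 for Tmem119 and 5.56 for Selplg, and without that of replicate 2 it was 7.57 and 8.78, with no test. The inputs themselves gave no call for either gene between genotypes (limma adjusted p = 1.00 for both, log2 difference 0.36, SE 1.76, for Tmem119 and 1.35, SE 1.26, for Selplg). No gene of 14876 was called there (0.00%), with 153 at an unadjusted p under 0.05. At this input depth a difference of the size seen in H3K27ac was not detectable.

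The regions around the locus, which are assigned to other genes, were tested in the same fit. Within 200 kb of the outermost Tmem119 and Selplg regions lay 88 regions of 10 other genes, of which 81 were tested, 15 rose (18.5%, against 6.80% of all tested regions) and 2 fell (2.47%, against 2.92%). Upstream of Selplg, 13 of 32 tested regions rose and 0 fell, all of them assigned to Coro1c (10 of 22) or to Ssh1 (3 of 9), whose product, a slingshot phosphatase, dephosphorylates the actin-severing protein cofilin. Summed per gene, the mean of Coro1c rose from 1140.5 ± 223 to 2504 ± 101 (SD of 2 pools; log2 change 1.15 with SE 0.12; adjusted p = 4.23e-05 by limma) and that of Ssh1 from 448 ± 108 to 1019 ± 31.8 (log2 change 1.20 with SE 0.15; adjusted p = 0.000186 by limma). Both passed as deposited too, with log2 changes of 1.37 and 1.43. The Coro1c sum holds 3 regions that lie inside Ssh1, 2 of them overlapping, with 572 ± 86.8 in WT and 1292 ± 88.4 in GrnKO, and 20 regions elsewhere, with 569 ± 136 and 1212 ± 12.7. The region with the smallest p, chr5:113945323-113946123, lies in intron 14 of 14 of Ssh1, 115 kb upstream of the Selplg start, although Coro1c has the nearest promoter. It held 309 and 261 in WT against 647 and 711 in GrnKO (log2 change 1.25 with SE 0.13, limma adjusted p = 1.42e-05). In intron 11 of 14 of Ssh1, chr5:113952369-113953169 held 100.1 and 85.9 in WT against 281 and 300.1 in GrnKO and chr5:113951683-113952483 held 117 and 79.9 in WT against 311 and 323 in GrnKO (limma adjusted p = 2.06e-05 and 2.78e-05). In all 3 the GrnKO libraries were above the WT libraries. The 3 Ssh1 regions that rose lie side by side in introns 11 and 12, the middle one overlapping each of the others, and the promoter of Ssh1 was not among them. Its 2 regions, chr5:113993486-113994286 and chr5:113993780-113994580, held 50.8 and 41.6 in WT against 38.5 and 35.3 in GrnKO, and 55.9 and 33.3 against 22.6 and 23.99. Both GrnKO libraries lay below both WT libraries there, and neither region passed (limma adjusted p = 0.607 and 0.162).

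Downstream of Tmem119 the neighbouring gene is Iscu, which encodes the scaffold for iron-sulfur cluster assembly. Both regions that fell were its own: chr5:113778257-113779057, at its termination site, with 459.9 and 466 in WT against 308 and 337 in GrnKO (log2 change -0.52 with SE 0.13, limma adjusted p = 0.0155), and chr5:113780775-113781575, between Iscu and Tmem119, with 130.2 and 119 in WT against 66.2 and 78.2 in GrnKO (log2 change -0.78 with SE 0.22, limma adjusted p = 0.0336). These calls ended as deposited (limma adjusted p = 0.59 and 0.273) and with either GrnKO library left out. The Iscu sum changed by -0.32 (SE 0.09, limma adjusted p = 0.0284; -0.09 as deposited, limma adjusted p = 0.9), and did not pass without GrnKO replicate 1 either (limma adjusted p = 0.473). Farther out, 2 of 27 regions of Cmklr1, the receptor for the chemoattractant chemerin, rose (7.41%, near the share of all tested regions), and both calls ended with either GrnKO library left out, 1 of them also without WT replicate 1. None of the 11 tested regions of Wscd2, 1700069L16Rik, Ficd and Sart3 passed in either direction, nor did the 1 tested region of Dao; the 2 regions of Svop were not tested. With either GrnKO library left out the number of neighbouring regions that rose was 8 in place of 15, and the number that fell was 5 without WT replicate 1 and 6 without WT replicate 2.

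Compared within each library, Selplg regions held 3.16 and 4.87 times the tags of the neighbouring Coro1c and Ssh1 regions in WT and 1.13 and 1.24 times in GrnKO. Tmem119 and Selplg regions together made up 44.0% and 47.5% of the tags of the window in WT and 35.7% and 36.1% in GrnKO, a difference of -9.87 percentage points. The genotypes did not overlap in either measure, which are descriptions because they contain the values of Tmem119 and Selplg themselves.

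**Figure D4:**
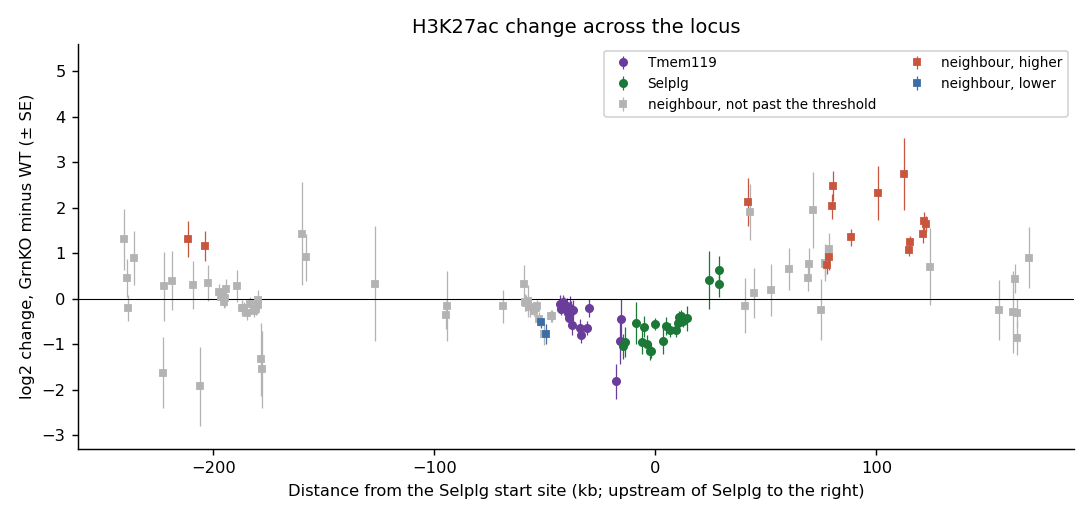
log2 change in H3K27ac (GrnKO minus WT, ± SE) for tested regions of Tmem119 (purple), Selplg (green) and neighbouring genes (squares; red, higher; blue, lower; grey, not past the threshold) against distance from the Selplg start site in kb. Selplg regions near the start site are negative, down to -1.16, and the red squares between 41.9 and 122 kb upstream reach 2.74.

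The start of Coro1c was also more acetylated in GrnKO. Its promoter region, chr5:113908428-113909228, held 61.4 and 40.1 in WT against 84.9 and 104 in GrnKO (log2 change 0.91 with SE 0.27, limma adjusted p = 0.0441), and 2 regions farther upstream, chr5:113909796-113910596 and chr5:113910275-113911075, held 28.2 and 26.98 in WT against 111 and 121 in GrnKO and 18.4 and 13.4 in WT against 99.3 and 85.4 in GrnKO (log2 change 2.03, SE 0.27, and 2.48, SE 0.33; limma adjusted p = 0.000118 and 0.000118). Between them, chr5:113908838-113909638 held 21.5 and 23.6 in WT against 52.3 and 46.6 in GrnKO and did not pass (log2 change 1.10 with SE 0.34, limma adjusted p = 0.0513). The promoter region did not pass without WT replicate 2 (limma adjusted p = 0.0922), GrnKO replicate 1 (0.222) or GrnKO replicate 2 (0.422), whereas the 2 regions farther upstream passed with any 1 library left out. The promoter sequence is shown because it is the nearest start site at which acetylation rose. RefSeq's promoter table (GRCm38.p6, the same assembly as mm10) gives it at chr5:113908657-113908956 on the minus strand, from 250 bases before to 50 after the start, with the match to the SP1 motif in capitals:
Coro1c promoter: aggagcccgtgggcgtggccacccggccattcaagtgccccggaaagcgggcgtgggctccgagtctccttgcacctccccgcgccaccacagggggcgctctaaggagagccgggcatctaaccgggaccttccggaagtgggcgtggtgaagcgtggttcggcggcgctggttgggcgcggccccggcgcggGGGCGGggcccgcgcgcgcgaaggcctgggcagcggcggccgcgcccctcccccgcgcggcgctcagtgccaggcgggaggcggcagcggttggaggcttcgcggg
Of 7 motifs searched on both strands (PU.1 GAGGAAG, AP-1 TGANTCA, E-box CACGTG, SMAD CAGACA, the TATAAA box of core promoters, the CCAAT box bound by NF-Y, and for SP1 GGGCGG), only SP1 had a match, and 35.7% of all 32851 promoters in the table hold it.

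H3K27ac was also lower over many other genes of homeostatic microglia. Of 35 such genes, all tested, 16 fell and 0 rose (over all genes tested, 5.88% fell and 8.60% rose), with a median log2 change of -0.22 against -0.05 over all genes. The genes with the smallest p were Cx3cr1, the fractalkine receptor, with 9834 and 10431 in WT against 7658 and 7563 in GrnKO (log2 change -0.41 with SE 0.06, limma adjusted p = 0.000638), Gpr165, an orphan receptor, with 369.9 and 350.4 in WT against 176 and 159 in GrnKO (log2 change -1.10 with SE 0.17, limma adjusted p = 0.000706), and Nav3, a neuron navigator family member, with 3687 and 3955 in WT against 2683 and 2789.8 in GrnKO (log2 change -0.48 with SE 0.08, limma adjusted p = 0.00125). Adgrg1, an adhesion G protein-coupled receptor, fell by 0.61 on the log2 scale (limma adjusted p = 0.00159), and Sall1, a transcription factor that maintains microglial identity, by 0.52 (limma adjusted p = 0.00172). Only 4 of the 35 had a more negative change than Selplg, and 11 had a more negative one than Tmem119. As deposited 1 gene of the list fell, Gpr165, and the median was 0.01, which relative to all genes is -0.17, against -0.17 after TMM. These relative values agree by construction, because TMM divides all values of a library by the same factor. Without GrnKO replicate 1 the list had 7 genes that fell, and without GrnKO replicate 2 it had 9; without WT replicate 2, 2 genes rose. The list was drawn up with earlier results of these data known, so its count is not independent evidence.

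Marker lists of 6 other cell types were summed over all regions in the authors' scaling, with the mean over their promoter regions beside each sum. For monocytes, neutrophils and lymphocytes the sum was 525 to 634 in WT and 794 to 1029 in GrnKO and the promoter mean 1.13 to 3.12 in WT and 10.1 to 11.3 in GrnKO. For oligodendrocytes the sum was 1638 to 2068 in WT and 2705 to 2861 in GrnKO and the promoter mean 8.58 to 11.01 in WT and 9.64 to 11.4 in GrnKO. For border macrophages the sum was 901 to 1105 in WT and 1213 to 1239 in GrnKO and the promoter mean 27.6 to 40.1 in WT and 34.0 to 44.2 in GrnKO. These 3 sums did not overlap between the genotypes, and of the promoter means only that of monocytes, neutrophils and lymphocytes did not. For endothelium the sum was 1558 to 1998 in WT and 1997 to 2118 in GrnKO and the promoter mean 11.5 to 19.7 in WT and 46.6 to 48.8 in GrnKO, the sums overlapping and the promoter means not. For astrocytes the sum was 2864 to 3537 in WT and 3417 to 3471 in GrnKO and the promoter mean 21.9 to 31.3 in WT and 28.8 to 33.3 in GrnKO. For neurons the sum was 180.4 to 282 in WT and 163 to 193 in GrnKO and the promoter mean 0.270 to 1.61 in WT and 0 to 2.00 in GrnKO, so that both measures overlapped for these 2 lists. After TMM their sums no longer overlapped and were lower in GrnKO, at 3415 to 3471 in WT and 3160.2 to 3208 in GrnKO for astrocytes and at 219 to 272 and 151 to 178 for neurons; for the other 4 lists overlap was as before. By gene, after TMM, 2 rose and 1 fell among 3 tested markers of monocytes, neutrophils and lymphocytes, 1 rose and 1 fell among 3 of oligodendrocytes and among 4 of endothelium, 1 fell among 3 of neurons, and 0 of 6 of border macrophages and 0 of 3 of astrocytes were called. No listed marker was at 0 in all 4 libraries. Fewer nuclei of a type and less acetylation per nucleus cannot be told apart in pooled nuclei, and the part of these cells in the Selplg and Tmem119 values was not tested.

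**Figure D5:**
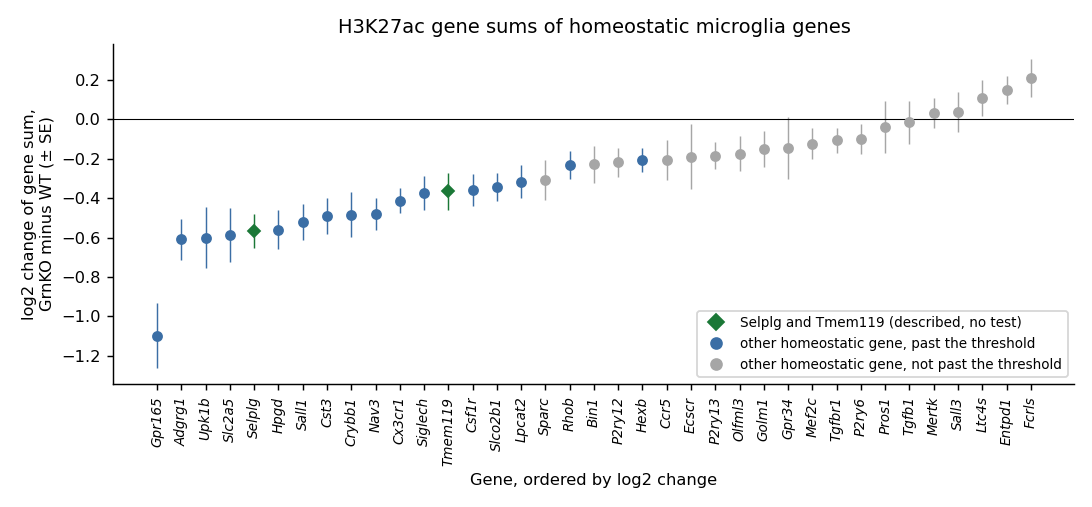
log2 change of the gene sum (GrnKO minus WT, ± SE) for 35 homeostatic microglia genes (circles; blue, past the threshold; grey, not) with Selplg and Tmem119 (green diamonds), ordered by change. Values run from -1.10 for Gpr165 to 0.21 for Fcrls, with Selplg at -0.57 and Tmem119 at -0.37.

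PSGL-1 binds P-selectin with high affinity only after its O-glycans and tyrosines are modified. The selectins, the enzymes of that modification and intracellular partners of PSGL-1 were therefore examined as a list. Of 21 genes 18 were tested, 2 rose and 2 fell (11.1% each, against 8.60% and 5.88% of all tested genes), and the median log2 change was -0.11 against -0.05 over all genes. These shares are near those of all genes and are not a result about the list. St3gal6, a sialyltransferase that caps the selectin-binding glycans, held 5371 and 5804 in WT against 4281 and 4407 in GrnKO (log2 change -0.36 with SE 0.07, limma adjusted p = 0.00435). C1galt1c1, the chaperone of the O-glycan core galactosyltransferase, held 264 and 190.4 in WT against 145 and 139 in GrnKO (log2 change -0.66 with SE 0.21, limma adjusted p = 0.0488). Among the genes that rose, Galnt3, which starts O-glycans, held 268 and 179 in WT against 417 and 393 in GrnKO (log2 change 0.88 with SE 0.19, limma adjusted p = 0.00703), and Ezr, encoding ezrin, which links membrane proteins such as PSGL-1 to actin, held 425 and 239 in WT against 545 and 541 in GrnKO (log2 change 0.77 with SE 0.21, limma adjusted p = 0.0267). As deposited neither gene that fell was called (limma adjusted p = 0.849 for St3gal6 and 0.348 for C1galt1c1). The log2 change of Ezr was 0.36 without WT replicate 2 (limma adjusted p = 0.0669). Without GrnKO replicate 1 the list had 0 genes that rose and 0 that fell, and without GrnKO replicate 2 it had 1 of each. Without WT replicate 2, 4 fell.

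Over the 4 H3K27ac libraries, the genes whose centred log2 sums were closest to those of Selplg, among 7489 genes with a mean of at least 100 scaled tags, were Tbpl1, Slco4a1, Dnajb1, BC051537 and Il6, at Euclidean distances of 0.0357 to 0.0511. Closest to Tmem119 were Trappc9, Aebp2, Cpb2, Csrnp1 and Mrpl54, at 0.0234 to 0.0383. Neither gene was among the 5 closest to the other: of the 7489 genes, Tmem119 came at place 361 for Selplg and Selplg at place 811 for Tmem119, at a distance of 0.224. The distances use the values by which the genes were chosen, so they are a description. Within a library Selplg held 1.73 and 1.90 times the tags of Tmem119 in WT and 1.59 and 1.56 times in GrnKO, without overlap between the genotypes.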

How the data were processed

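H3K27ac and input libraries of WT and GrnKO microglial nuclei were analysed by the authors with Bowtie2, HOMER and DESeq2 on build mm10, per the submitters' processing notes, whose role, order and settings are not given in the sources used here. Per the file headers the authors counted tags in 800 bp regions built from merged ATAC-seq peaks and deposited them as a signal scaled to 10000000 tags per library. Multiplying by the library totals returned whole read ends (2 per tag) for 100% of values in each column, with a tolerance of at most 0.0300 read ends. The floor of 3 tags is 1.50 to 1.94 scaled tags in H3K27ac libraries and covers counting error only.

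Regions were filtered with filterByExpr (minimum 10 tags), which kept 80728, and scaled by TMM factors of 0.825, 1.04, 1.08 and 1.08 (WT replicates 1 and 2, GrnKO replicates 1 and 2). The same factors were used for sums of all regions of a gene (15380 tested). limma 3.58.1 in R 4.3.3 was fitted to log2(scaled tags + 1), which understates changes of low values, with genotype as its only term and Benjamini-Hochberg adjustment over all features at 0.05. Contrasts with input used the authors' scaling, and features with no tag in any input were left out of the input contrast. edgeR 4.0.16 and DESeq2 1.42.0 on the recovered read ends, other scalings, a pseudocount of 5, no filter, a replicate block and left-out libraries were alternatives. In a simulation of the region comparison on 77690 regions, limma called 77 of 95 regions changed 4-fold and 8 of 96 changed 2-fold, with 7 false calls. Most 2-fold changes in single regions were thus missed in that setting. The simulation changed few regions and gave all of them the same dispersion. In the data 2.92% of tested regions were called lower and 6.80% higher, so the simulated shares do not give the power for the regions described here.

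The 2 genes and the lists were chosen with earlier results of these data known. Described are all regions of both genes, by coordinates or by distance from the start, the 3 neighbouring regions with the smallest p in each direction, and per list the 5 genes with the smallest p in each direction among those past the threshold. The neighbours at the start of Coro1c were named after their values were seen. The titles give the replicate numbers, and H3K27ac libraries of unlike genotype come from different mice.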

Additional observations from a re-analysis of the deposited data

How the results depend on the processing

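Of 725 values computed under alternatives, 640 kept their direction and their call, or stayed within 1 SD of the replicates (for counts, within 1.5 times), 23 lost their call, 62 moved and 0 of those called reversed; unless a value here shows it, the cause was not tested. As deposited, the Selplg change was -0.34 and the Tmem119 change -0.14, and 3 member regions, 0 neighbouring regions, 1 homeostatic gene and 0 selectin-list genes were called lower. That scaling moved the median of all tested regions by 0.22 on the log2 scale. Over the promoter regions alone, which include the intronic region 0.872 kb from the start, Tmem119 changed by -0.51. The lower calls in the selectin list were 1 without the filter, 1 with edgeR and 1 with TMM factors from gene sums, an alternative chosen after seeing the data. The share of tags in the members differed by -12.3 percentage points in a 100 kb window. With the replicate number as a block, 6 neighbouring regions and 4 selectin-list genes were called lower, and it moved no other count by over 1.5 times. The deviations of same-numbered libraries correlated at 0.034. The labels give only the replicate number, and whether same-numbered samples shared a batch was not tested.

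Leaving out each H3K27ac library, where limma rests on 1 residual degree of freedom and takes the lone library to vary like the other genotype, gave -0.67 to -0.46 for Selplg, -0.49 to -0.24 for Tmem119 and -11.6 to -8.09 percentage points for the share of tags in the members. Counts ran from 3 to 19 member regions lower, 8 to 19 neighbouring regions higher and 0 to 6 lower, 7 to 24 homeostatic genes lower and 0 to 2 higher, and 0 to 2 selectin-list genes higher and 0 to 4 lower. Input depth, down to 4 tags over Selplg, limits what the contrasts with input can show.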
